A study of Mus musculus with 2 samples.

Results

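The HNRNP and RBM genes encode RNA-binding proteins of the nucleus, and 55 of them were followed here in macrophages grown from mouse bone marrow, in RNA of the nucleoplasm. A gene was taken when its symbol begins with Hnrnp, or is Rbm with a number and at most 1 further letter, and when at least 1 of its annotated transcripts is typed protein_coding, and 1 RBM symbol was left out by the same rule. This gave 20 HNRNP and 35 RBM genes, of 21901 genes with a protein_coding transcript and 55536 genes in all. The rule itself uses no measured value. Heterogeneous nuclear ribonucleoproteins (hnRNPs) coat nascent transcripts as they leave RNA polymerase II and influence splicing, export and decay. RBM proteins are named for an RNA recognition motif, and many belong to the spliceosome, to the complex that writes N6-methyladenosine or to adaptors that hand RNA to the nuclear exosome. In many genes for splicing regulators, a retained intron or an exon with an early stop codon lowers the amount of productive mRNA, a known form of autoregulation.

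The series has 1 group of 2 libraries, biological replicates 1 and 2, from C57BL/6J primary macrophages whose age and sex the labels do not give. The labels list separate biosamples under 1 donor identifier, and whether these were separate mice or cultures is not known here. Both were pre-treated with Lipid A, the part of lipopolysaccharide that Toll-like receptor 4 binds, at 100 ng/ml over 12 h, then had a washout of 12 h and a second exposure at 100 ng/ml lasting 30 min. There is no untreated, cytoplasmic or earlier sample, so every value describes this state and no response to Lipid A can be read from it. Libraries were made from total nucleoplasmic RNA after removal of ribosomal RNA, starting with 1 µg (replicate 1) and 500 ng (replicate 2). The gene tables held 23846021 (replicate 1) and 20675305 (replicate 2) counts, and a count of 0 allows up to 3 counts, which equal 0.126 and 0.145 CPM (counts scaled to library size). All 7 macrophage markers reached 1 TPM (a transcript level normalised for length and to the same total per library) in each library, and none of the 17 markers of T cells, B cells, neutrophils, fibroblasts and erythroid cells did; the neutrophil markers S100a8 (0.5 and 1.16 TPM) and S100a9 (0.71 and 1.1 TPM) passed it in replicate 2. With 2 libraries of 1 group no test between groups exists, so differences are set against the spread of the replicates, which may be technical in part. In bulk RNA, fewer cells of a type and less RNA per cell cannot be told apart.

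Several of these genes had much of their estimated TPM in annotated transcripts not typed protein_coding. Complete introns that some of these transcripts keep are shown first. The shares are estimates for whole transcripts, and reads over the introns themselves were not counted. Taken were transcripts not typed protein_coding that averaged at least 15% of their gene's TPM. Each had to hold, inside one exon, a complete intron flanked by coding sequence on both sides. Transcripts with some of the largest shares, such as Rbm15-202 and Rbm4b-206, hold no such intron and are not shown. The Hnrnph1 transcripts shown are typed processed_transcript, the others retained_intron. Introns that overlap an annotated untranslated region were left out, among them introns in Hnrnph3-206, Rbm3-209 and Rbm38-203 and a further one in Rbm7-203. The rest were 10 introns in 8 transcripts of 7 genes, all 10 opening with GT and closing with AG, from 133 to 3300 bases long and with a GC content between 30.1% and 50.4%. Sequences are from the GENCODE M21 transcripts on mm10, 5′ to 3′ on the gene's strand; capitals mark the intron's first GT and last AG, and 10 exon bases flank each side. The 2 introns short enough to print whole lie in Hnrnph1, whose protein binds runs of G, and in Rbm28, a nucleolar protein of ribosome assembly.
Hnrnph1-207 intron, chr11:50379624-50379820, plus strand: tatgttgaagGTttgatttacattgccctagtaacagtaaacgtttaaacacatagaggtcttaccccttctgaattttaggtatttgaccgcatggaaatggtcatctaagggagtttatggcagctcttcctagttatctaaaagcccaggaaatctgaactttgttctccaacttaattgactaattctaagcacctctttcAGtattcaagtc
Rbm28-203 intron, chr6:29154894-29155026, minus strand: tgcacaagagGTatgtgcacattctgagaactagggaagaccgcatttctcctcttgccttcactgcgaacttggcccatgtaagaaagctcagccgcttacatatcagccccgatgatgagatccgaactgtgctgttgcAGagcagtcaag
Hnrnph1-207 held 17.2% and 15.2% of the Hnrnph1 TPM in replicates 1 and 2, and Rbm28-203 held 23.3% and 21.6% of the Rbm28 TPM. In tables made directly from the read files, these shares were 17.6% and 13.6% for Hnrnph1-207, and 14.0% and 8.02% for Rbm28-203. Of the 1923 bases of Rbm28-203, 133 lie outside the exons of the gene's protein_coding transcripts.

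The longer introns are shown by their 2 borders, each with 20 intron bases, since these transcripts keep both splice sites of the intron inside one exon. Rbm7 encodes the RNA-binding subunit of the nuclear exosome targeting complex, Rbm4 and Rbm5 encode splicing regulators, Rbm25 a splicing factor that joins the U1 particle, and Hnrnpll a regulator of Ptprc (CD45) splicing in lymphocytes.
Rbm7-203, 5′ border, chr9:48493495-48494018, minus strand: tttagatcagGTaatggctcggtattgtgg
Rbm7-203, 3′ border: ttgaaattgcttcattttAGgaagcagtca
Rbm4-205, 5′ border, chr19:4790311-4792397, minus strand: gagtttcaagGTgaatcactcttttggagt
Rbm4-205, 3′ border: ttcccttaatatatttttAGaaagtggtgt
Rbm5-219, 5′ border of the longer intron, chr9:107756993-107759775, minus strand: agccaatcagGTtgcttcactcaccaagtc
Rbm5-219, 3′ border of the longer intron: attgcttcttttttttacAGaaaaaattgg
Rbm5-219, 5′ border of the shorter intron, chr9:107759850-107760321, minus strand: aggaaaacagGTgagagcttgcttggttcc
Rbm5-219, 3′ border of the shorter intron: tatctgaatgctgtctctAGgtgtaagccg
Rbm25-206, 5′ border, chr12:83660679-83663978, plus strand: tacacacaagGTagtattcttgatttttca
Rbm25-206, 3′ border: gtacttttgttggtttctAGaaactggaag
Hnrnpll-202, 5′ border, chr17:80034248-80035330, minus strand: ttaatgtttgGTaattacttgtcctaagtt
Hnrnpll-202, 3′ border: ttttcttttctaatcttcAGtgtgtctaaa
Hnrnph1-204, 5′ border of its longer intron, chr11:50379965-50381458, plus strand: ttcttctcagGTatgtagtcctgtttgttg
Hnrnph1-204, 3′ border of its longer intron: tatttgtccttgggttgaAGggttggaaat
These transcripts held similar shares of their gene's TPM in both replicates: 41.4% and 39.2% for Rbm7-203, 39.9% and 41.4% for Rbm4-205, 19.1% and 22.3% for Rbm5-219, 16.2% and 17.9% for Rbm25-206. The replicates lay further apart for Hnrnph1-204 (17.9% and 23.9%) and for Hnrnpll-202 (13.9% and 22.9%). In tables made directly from the read files, Rbm25-206 held 13.0% and 14.8%, below the 15% used to choose transcripts. There Rbm7-203 held 41.6% and 41.7%, Rbm4-205 33.7% and 41.5%, and Rbm5-219 14.1% and 18.2%. Hnrnph1-204 held 14.4% and 17.1% there, and Hnrnpll-202 14.5% and 23.3%.

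Nearly all of the 55 genes were detected. TPM was 1 or more in both libraries for 48 of 55, which were all 20 HNRNP and 28 of 35 RBM genes, against 42.1% of all 21901 protein-coding genes. TPM reached 10 in both libraries for 32 genes, against 15.7% of all, 50 for 11, against 2.79%, and 100 for 2, against 1.21%. The median gene had a TPM of 13.2 in replicate 1 and 15.6 in replicate 2, against 0.29 and 0.34 over all protein-coding genes, and 3.11 and 3.98 over those above 0. HNRNP genes stood higher, with medians of 37.1 and 49.9 TPM, than RBM genes, with 5.66 and 7.50 TPM. Summed TPM was 1104 and 1324 for the HNRNP genes and 754 and 823 for the RBM genes, a ratio of 1.46 in replicate 1 and 1.61 in replicate 2. Together the 55 genes held 0.566% and 0.561% of the gene counts. These levels come from tables made from alignments to the transcriptome (alignment-based); in tables made directly from the read files (read-based) the ratio averaged 1.11 over both libraries.

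**Figure D1:**
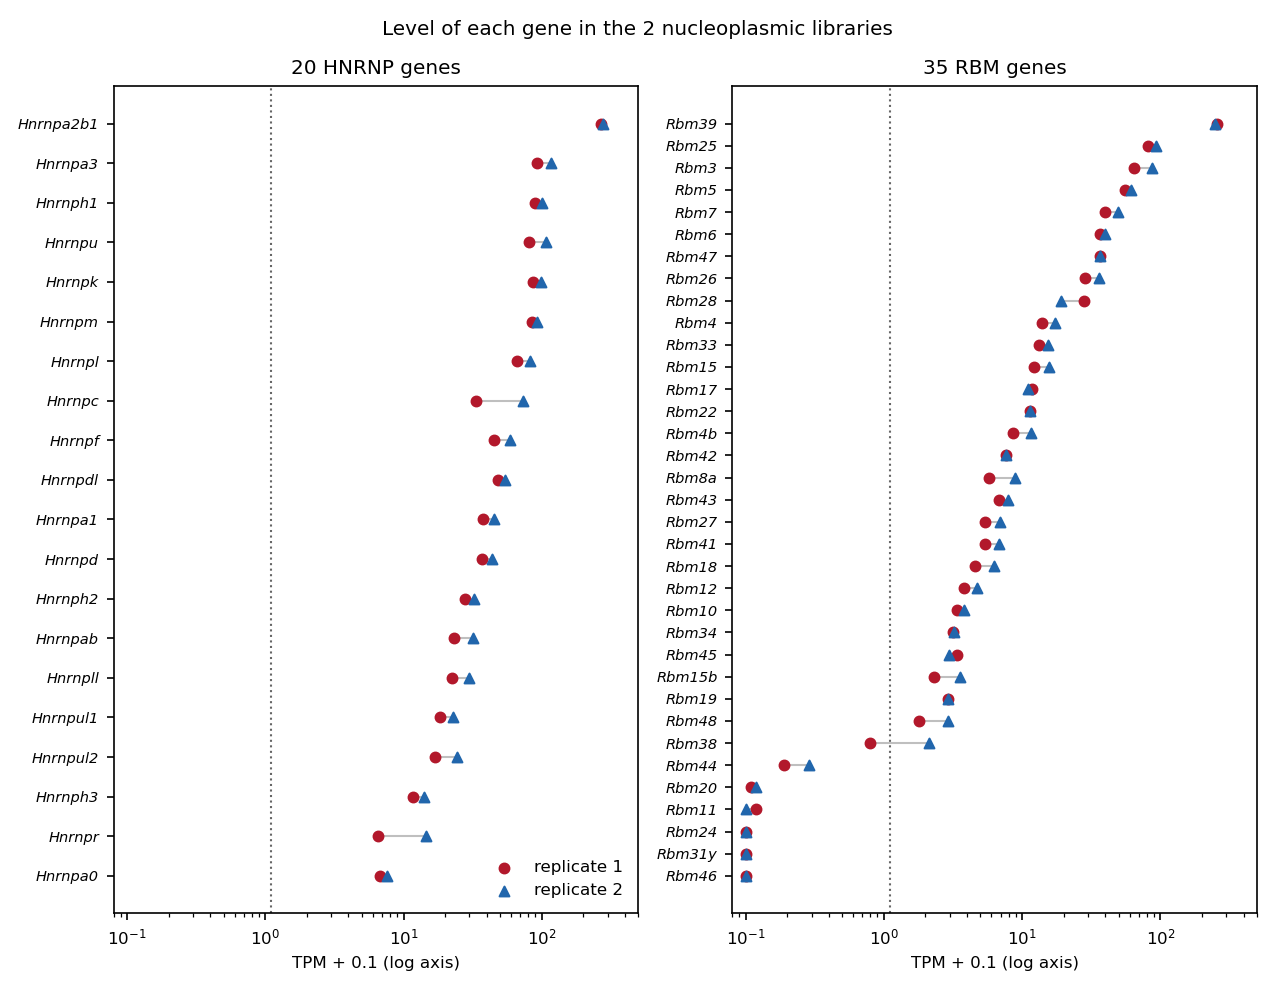
TPM + 0.1 on a log axis for each of the 20 HNRNP genes (left) and 35 RBM genes (right), ordered by mean, with replicate 1 as circles and replicate 2 as triangles and a dotted line at a TPM of 1. All HNRNP genes lie right of the line in both libraries, 7 RBM genes do not, and Hnrnpc, Hnrnpr and Rbm38 show the widest gaps between the replicates.

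Order along the ranking was loose, because the means of neighbouring genes were mostly closer than their replicates. Of 51 pairs of neighbours among the genes above 0, 7 were apart by more than the larger SD of the pair, and 8 had no overlap of their library values. By alignment-based TPM, the clear steps near the top were Hnrnpa2b1 above Rbm39, Rbm39 above Hnrnpa3, and Hnrnpl above Rbm5. In the read-based tables the first step was reversed. There Hnrnpa2b1 had 115 TPM in replicate 1 and 175 in replicate 2, and Rbm39 had 240 and 368. The 8 genes from Hnrnpa3 to Hnrnpl overlapped in their values from one neighbour to the next.

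Members of the A/B and D group of hnRNPs carry paired RNA recognition motifs and a glycine-rich tail. By alignment-based TPM its 7 genes had the largest sum of the role groups, with 513 in replicate 1 and 575 in replicate 2. In the read-based tables the spliceosome-associated RBM genes summed higher than this group in both libraries. Hnrnpa2b1 (chr6:51460932-51469894, minus strand), a splicing regulator that also reads N6-methyladenosine, led all 55 genes in the alignment-based tables but not in the read-based tables. Its alignment-based TPM was 269 in replicate 1 and 276 in replicate 2 (272.9 ± 5.03, SD, n = 2). Hnrnpa3 had 91.8 and 116 TPM, Hnrnpdl 48.0 and 54.4, and Hnrnpa1, a repressor of splice sites, 37.2 and 45.4. Hnrnpd, which binds AU-rich elements and speeds or slows mRNA decay, had 37.0 and 43.3 TPM, and Hnrnpab had 22.9 and 31.5. Hnrnpa0, an intronless gene whose protein binds AU-rich elements in macrophages, was the lowest HNRNP gene by mean, with 6.67 and 7.45 TPM. The top of this group therefore stood far above its bottom, by more than any gap between the replicates.

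The F/H group, which binds G-rich stretches, summed to 175 and 205 TPM. Hnrnph1 had 89.9 and 99.9 TPM, Hnrnpf 45.2 and 58.8, Hnrnph2 27.8 and 32.1, and Hnrnph3 11.6 and 13.9. Their order was the same in both libraries. Hnrnpk, a KH-domain protein that binds C-rich RNA and DNA, had 85.8 and 98.4 TPM. Hnrnpu, also known as scaffold attachment factor A, had 81.3 and 108 TPM, and its relatives Hnrnpul1 and Hnrnpul2 had 18.4 and 22.9, and 16.9 and 24.1. Hnrnpl, which binds CA repeats, had 66.5 and 81.4 TPM, and its paralog Hnrnpll had 22.3 and 29.7. Among hnRNPs C, M and R, Hnrnpm, known in mouse macrophages as a brake on the splicing of Il6, had 85.3 and 92.6 TPM, and the poly-U binder Hnrnpc had 33.1 and 73.0. Hnrnpr, a cytoplasmic and nuclear protein related to Syncrip, had 6.48 and 14.5 TPM.

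The spliceosome-associated RBM genes summed to 470 and 487 TPM over 10 genes, all at or above a TPM of 1. Rbm39 (chr2:156147239-156180238, minus strand), a splicing coactivator related to U2AF and the target of aryl sulfonamide degraders, had 257 and 249 TPM (253.4 ± 5.54, SD, n = 2). Rbm25 followed with 80.8 and 93.4 TPM. The related splicing regulators Rbm5, Rbm6 and Rbm10 had 55.3 and 61.7, 36.2 and 39.8, and 3.31 and 3.69 TPM. Rbm17, which helps choose 3′ splice sites, had 11.8 and 11.0 TPM, and Rbm22, which joins the spliceosome as it is activated, had 11.2 and 11.3. Rbm42, Rbm41 and Rbm48 lay between 1.70 and 7.52 TPM, and Rbm41 and Rbm48 act in the minor spliceosome of human cells. Hnrnpa2b1 and Rbm39 alone held 28.4% of the TPM of the 55 genes in replicate 1 and 24.5% in replicate 2.

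The adaptors of nuclear decay summed to 73.6 and 92.4 TPM. Rbm7 had 40.0 and 49.4 TPM, and Rbm26 and Rbm27, which link polyadenylated RNA to the exosome, had 28.3 and 36.2, and 5.28 and 6.83. Rbm15 and Rbm15b, which guide the N6-methyladenosine writer to its targets, had 12.1 and 15.6, and 2.20 and 3.46 TPM. Rbm3, a protein induced by mild cold, had 64.9 and 87.0 TPM. Rbm47, the partner of Apobec1 in C-to-U editing had 36.7 and 36.3 TPM, nearly the same level in both replicates. Rbm8a, the exon junction protein Y14, had 5.66 and 8.79 TPM. Rbm28 had 27.8 and 18.9 TPM, and the other genes of ribosome assembly, Rbm19 and Rbm34, had 2.81 and 2.79, and 3.09 and 3.11. Rbm4, Rbm33 and Rbm4b had 13.8 and 17.2, 13.2 and 15.3, and 8.46 and 11.5 TPM. Rbm43, Rbm18, Rbm12 and Rbm45 lay between 2.87 and 7.76 TPM.

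In the alignment-based tables, the genes known from other tissues were at or near 0. Rbm24, a splicing regulator of muscle, Rbm46 of germ cells and the Y-linked Rbm31y were listed at 0 TPM and 0 counts in both libraries, which allows up to 3 counts in each. Rbm20, which splices titin in the heart, had 0.01 and 0.02 TPM from 2 and 3 counts, and Rbm11 had 0.02 and 0 TPM from 1 and 0 counts. The read-based tables differed for Rbm11, with 70.2 counts in replicate 1 and 52.5 in replicate 2, at 0.25 and 0.35 TPM. Rbm44 of germ cells had 0.09 and 0.19 TPM from 4 counts in each library. Rbm38, which binds the mRNA of the p21 cell cycle inhibitor and is a target of p53, had 47 counts in each library but 0.70 TPM in replicate 1 and 2.01 in replicate 2.

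**Figure D2:**
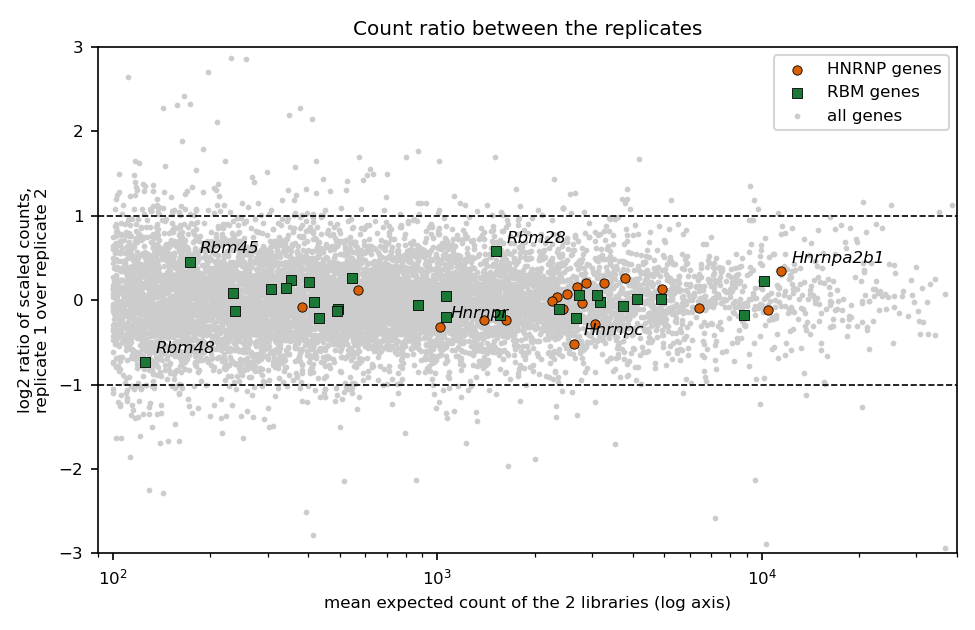
Log2 ratio of scaled counts, replicate 1 over replicate 2, against the mean expected count on a log axis, for HNRNP genes (circles), RBM genes (squares) and all genes (grey) with a mean count of 100 or more; dashed lines mark 2-fold, and 57 genes fall outside the axes. All 48 HNRNP and RBM genes lie between the dashed lines, with Rbm28 highest and Rbm48 lowest.

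Counts of the HNRNP and RBM genes repeated closely. At a mean count of 100 or more, 48 of the 55 genes could be compared, and the median log2 ratio of counts scaled by TMM (trimmed mean of M values), replicate 1 over replicate 2, was -0.02, the same as over all 9673 genes. None of the 48 was beyond 2-fold, a share near the 3.49% of all genes. Within 1.2-fold were 40 of 48, against 50.7% of all genes, and at a mean count of 1000 or more 26 of 32, against 56.0% of 3341 genes. The median size of the log2 ratio was 0.13 for these genes and 0.26 for all genes. At a mean count of 100 or more, their median difference between the libraries was thus smaller than that of all genes. At both count limits a larger share of them lay within 1.2-fold. Single genes differed more than the median of all genes, among them Rbm28 and Rbm48.

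Rbm28 stood at the upper end of the 48, with 1915 counts in replicate 1 and 1118 in replicate 2, which is 0.58 on the log2 scale with a counting interval from 0.47 to 0.69. Rbm48 stood at the lower end, with 103 and 149 counts, or -0.73 (-1.11 to -0.36). Hnrnpc followed, with 2344 and 2919 counts, or -0.51 (-0.59 to -0.43). The 95% intervals are exact Clopper-Pearson bounds and cover counting error only, so an interval clear of 0 says that the 2 libraries differ, not that a condition does. Hnrnpa2b1, with 13576 and 9320 counts, had a log2 ratio of 0.35 (0.31 to 0.38), and Rbm39, with 11648 and 8673 counts, 0.23 (0.19 to 0.27).

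TPM gave a different picture from counts. TPM was lower in replicate 1 for 41 of the 48 genes, against 72.9% of all 9673 genes, with a median log2 ratio of -0.27, against -0.26 over all genes. All protein-coding genes together summed to 203983 TPM in replicate 1 and 299648 in replicate 2, and the part of this in the lower TPM of single genes was not tested. By TPM, 2 of the 48 genes were beyond 2-fold, against 5.58% of all genes, a share near the background. Hnrnpc had a log2 TPM ratio of -1.14 and Hnrnpr of -1.15, though the log2 count ratio of Hnrnpr was -0.31 (-0.44 to -0.19).

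Both genes had a shorter effective length in replicate 2. It was 1825 bases in replicate 1 and 1439 in replicate 2 for Hnrnpc, and 3900 and 2636 for Hnrnpr. A short transcript typed retained_intron moved with it in each. Hnrnpc-212, of 611 bases, held 1.33% of the gene's TPM in replicate 1 and 28.6% in replicate 2, from 6.53 and 227 expected counts. Hnrnpr-208, of 473 bases, held 2.62% and 22.9%, from 1.56 and 23.5 expected counts. The read-based table gave the same direction, with 1.55% and 18.6% for Hnrnpc-212 and 9.52% and 39.9% for Hnrnpr-208. All bases of Hnrnpc-212 also lie in exons of the gene's coding transcripts, so no intronic base marks it. Rbm38, at low counts, was alike in effective length only, with 1717 bases in replicate 1 and 841 in replicate 2. The short transcript that rose there was Rbm38-208, of 440 bases, which is typed protein_coding. It held 52.2% of the Rbm38 TPM in replicate 2, from 6.45 expected counts. The retained_intron transcript Rbm38-203, of 2281 bases, held a smaller share in replicate 2 (16.9%) than in replicate 1.

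**Figure D3:**
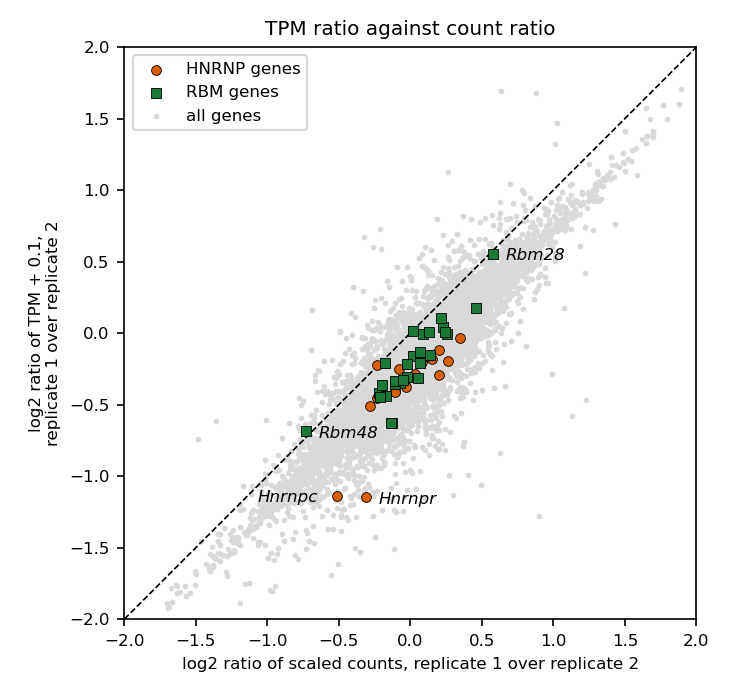
Log2 ratio of TPM + 0.1 against log2 ratio of scaled counts, both replicate 1 over replicate 2, for HNRNP genes (circles), RBM genes (squares) and all genes (grey) with a mean count of 100 or more; the dashed line marks equal ratios, and 46 genes fall outside the axes. Of the 48 HNRNP and RBM genes, 45 lie below the line, and Hnrnpc and Hnrnpr lie furthest below it among them.

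Transcripts not typed protein_coding held a large share of many of these genes. Nuclear RNA can hold unspliced or partly spliced RNA. How far such RNA, rather than finished transcripts, gave these shares was not tested. Over the 48 genes that reached 1 TPM in each library, the median share of TPM in such transcripts was 37.2% in replicate 1 and 31.0% in replicate 2, against 24.2% and 18.9% over 9214 protein-coding genes. Transcripts typed retained_intron held a median of 20.8% and 19.7%, against 12.0% and 7.72%. Of their 419 annotated transcripts 27.4% are typed retained_intron, against 26.3% over all, and 11.0% nonsense_mediated_decay, against 8.16%. At least 1 retained_intron transcript is annotated for 72.9% of the 48 genes, against 64.2% of all, and the median number of transcripts a gene is 6.5 against 6. Among genes with a retained_intron transcript annotated, the median share was 36.2% and 36.6% for 35 of the HNRNP and RBM genes, against 25.8% and 20.6% for 5916 genes. Less than 50% of the TPM was in protein_coding transcripts in both libraries for 16 of the 48 genes, against 14.7% of all.

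A share of TPM gives a short transcript more weight than a share of reads does. Weighted by expected counts, the median share in transcripts not typed protein_coding was 21.1% in replicate 1 and 22.7% in replicate 2 for these genes, against 10.3% and 8.02% over all protein-coding genes. The retained_intron share was 9.54% and 7.98%, against 3.93% and 2.46%. By both weights the median of the 48 genes was above that of all genes, though single genes lay below it.

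**Figure D4:**
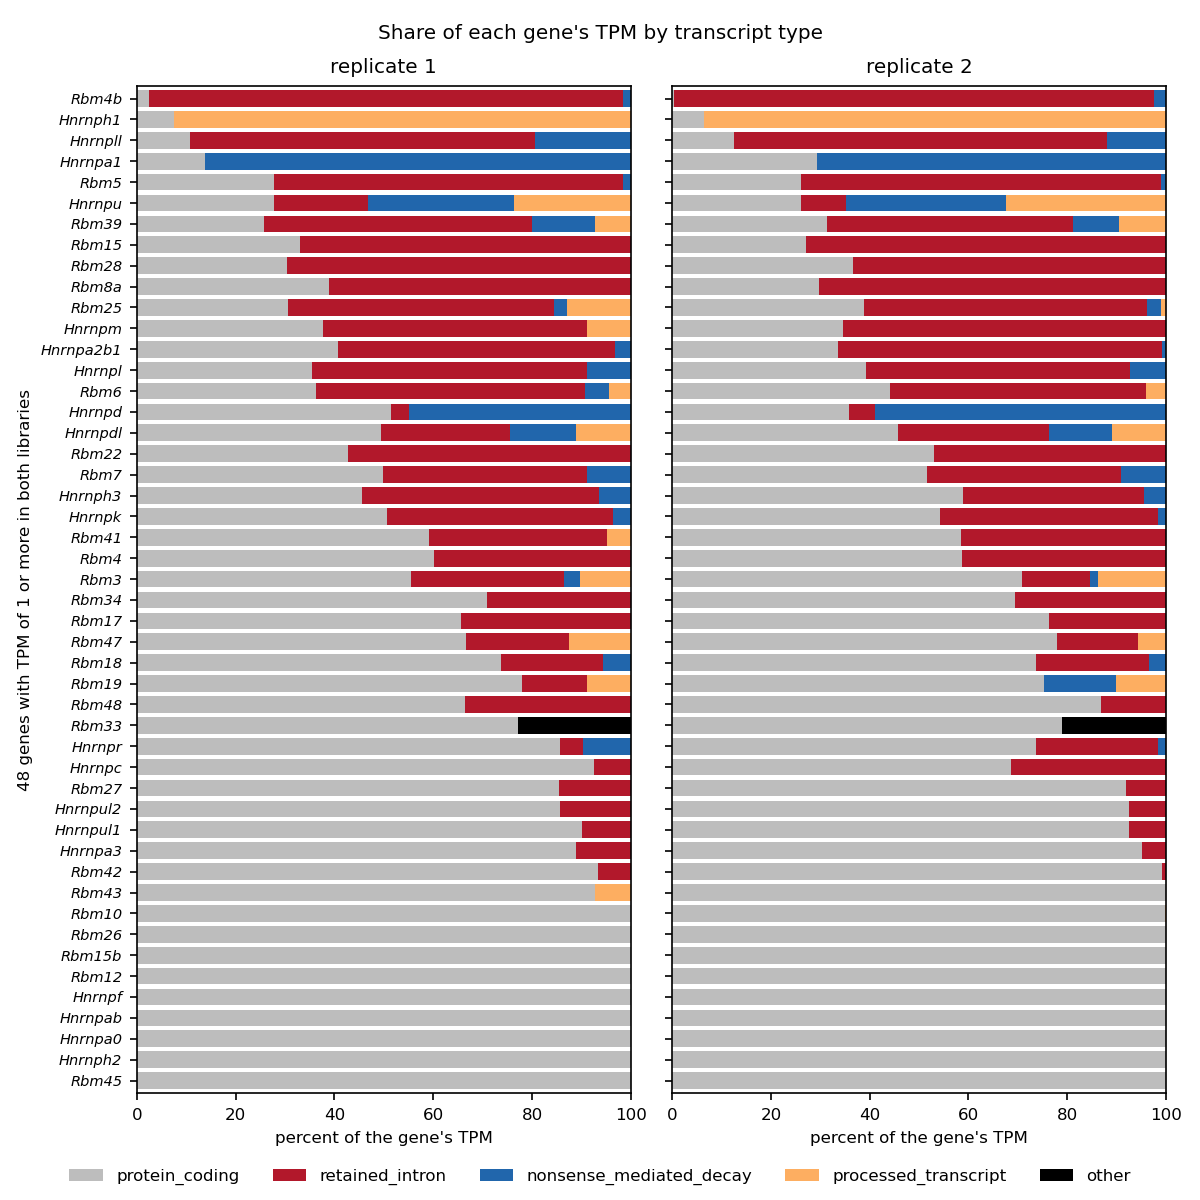
Percent of each gene's TPM by transcript type in replicate 1 (left) and replicate 2 (right) for the 48 genes that reached 1 TPM in each library, ordered by the mean protein_coding share. The top rows, from Rbm4b to Hnrnpa1, hold under 30% in protein_coding transcripts in both libraries, and the 8 genes with only protein_coding transcripts annotated stand among the bottom rows.

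The leading transcript of a gene is the one with the highest TPM. It was not typed protein_coding in both libraries for 13 of the 46 genes with 2 or more transcripts, against 9.93% of 8614 genes. Among genes with 5 or more transcripts the count was 11 of 39, against 12.3%, and among genes with a retained_intron transcript annotated 11 of 35, against 12.5%. The leading transcript was typed retained_intron for 9 of the 13, nonsense_mediated_decay (an early stop codon) for 3 and processed_transcript (no open reading frame given) for 1. Of these 13, 10 also led with a transcript not typed protein_coding in both libraries by the read-based tables. Hnrnpa1, Hnrnpd and Rbm4 did not. With the 22 genes left out that overlap an exon of another gene with counts, 9 of the 13 were left.

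In some genes one such transcript took a large part of the TPM or of the counts. From here on, coding exons are all exons of the gene's protein_coding transcripts, untranslated regions included. Rbm15-202, an unspliced single exon of 5967 bases with 51.6% of its bases outside the coding exons, held 66.9% of the Rbm15 TPM in replicate 1 and 72.8% in replicate 2, from 1807 and 1812 counts. Rbm4b-206, a single exon of 5670 bases with 73.6% outside the coding exons, held 61.7% and 61.4%, and all transcripts of Rbm4b not typed protein_coding together held 97.5% and 99.6%. Rbm7-203, a single exon that runs through 2 complete introns, 1 of them shown above, took 47.1% and 44.7% of the Rbm7 counts, and 85.4% of its bases lie outside the coding exons. Rbm4-205 took 50.8% and 56.0% of the Rbm4 counts, and Rbm5-219 took 47.5% and 51.5% of the Rbm5 counts. In these 5 genes the leading transcript took a larger share of the counts than of the TPM in both replicates, with 73.8% and 78.9% of counts for Rbm15-202 and 70.2% and 69.5% for Rbm4b-206.

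In Hnrnpm, Rbm8a and Hnrnph1 the leading transcript was short, and its share of counts was smaller than its share of TPM. Hnrnpm-213, of 591 bases, held 34.1% and 43.4% of the Hnrnpm TPM but 11.0% and 14.8% of its counts. Rbm8a-204, of 560 bases, held 39.9% and 66.9% of the Rbm8a TPM, from 28.9 and 55.8 counts, which were 11.9% and 24.0% of the gene's counts. The Hnrnpa2b1 TPM was led by Hnrnpa2b1-208 with 23.7% in replicate 1 and by Hnrnpa2b1-211 with 24.9% in replicate 2, both typed retained_intron. Retained_intron transcripts together held 56.1% and 65.7% of the Hnrnpa2b1 TPM. Hnrnph1-212, a processed_transcript of 816 bases, held 29.0% and 33.1% of the Hnrnph1 TPM and 10.8% and 12.6% of its counts, and all of its bases lie in coding exons too, so no intronic base marks it either. By counts the largest share of Hnrnph1 was in Hnrnph1-204, with 42.8% and 57.5%, a transcript that runs through 2 introns and has 60.8% of its bases outside the coding exons. Hnrnpll led with Hnrnpll-207, typed retained_intron, at 24.0% and 25.8% of its TPM and 36.4% and 39.7% of its counts.

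By the alignment-based tables, the 3 genes led by a transcript typed nonsense_mediated_decay in both libraries were Hnrnpa1, Hnrnpd and Hnrnpu. By the read-based tables, none of the 3 led with that type in both libraries. There the coding Hnrnpa1-202 led in replicate 2 (42.4%) and the coding Hnrnpd-210 in replicate 1 (43.2%). Hnrnpu led there with the processed_transcript Hnrnpu-203 in both. The shares that follow are alignment-based. Hnrnpa1-203 and Hnrnpa1-204 are of that type and together left 13.8% of the Hnrnpa1 TPM in replicate 1 and 29.4% in replicate 2 to the coding transcript Hnrnpa1-202. Hnrnpd-208 held 32.6% and 46.8% of the Hnrnpd TPM. Hnrnpu-206 held 28.7% and 31.8% of the Hnrnpu TPM, and Hnrnpu-205, a processed_transcript that lies outside the coding exons over its whole length of 2640 bases, held a further 20.4% and 20.6%. Hnrnpu overlaps Cox20 on the opposite strand, and whether the counting used strand is unstated in the sources; without strand, reads of both cannot be told apart. The same holds for Hnrnpk with Rmi1 and for Rbm3 with Rbm3os.

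Other genes held their TPM in coding transcripts. Hnrnpa0, Hnrnpab, Hnrnpf, Hnrnph2, Rbm12, Rbm15b, Rbm26 and Rbm45 had 0% outside them, but these 8 have no transcript of another type annotated, so the value was set by the annotation. With them left out, the median share not in protein_coding was 49.0% in replicate 1 and 43.6% in replicate 2 for the remaining 40, against 30.4% and 25.2% over 7697 genes with such a transcript. Among those 40, Rbm10 and Rbm42 had at most 6.65%. Hnrnpa3 had 11.0% and 4.86%, Hnrnpul2 14.3% and 7.46%, and Rbm27 14.6% and 8.05%.

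The replicates named the same leading transcript for 39 of 46 genes, close to the share of all genes, 81.3%. The alignment-based and read-based tables gave different leading transcripts in both libraries for 9 of 46 genes, a share near the 17.0% of all: Hnrnpa1, Hnrnpa3, Hnrnpf, Hnrnpk, Hnrnpl, Hnrnpll, Hnrnpu, Rbm39 and Rbm6. Rbm39 led with the coding Rbm39-217 in the alignment-based table, at 20.3% and 25.1%, and in the read-based table with Rbm39-224, typed nonsense_mediated_decay, in replicate 1 and with Rbm39-205, typed retained_intron, in replicate 2. For Hnrnpk, with 34 transcripts, the leader was the coding Hnrnpk-224 in the alignment-based table and the retained_intron Hnrnpk-204 in the read-based table. Hnrnpf and Hnrnpa3 had coding leaders in both tables. Alignment-based TPM was higher than read-based TPM by a median log2 of 0.93 in replicate 1 and 0.42 in replicate 2 over these genes, and by 0.86 and 0.36 over all protein-coding genes.

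Related RNA-binding genes outside the naming rule gave a setting for these values. All 21 reached 1 TPM in each library, none was beyond 2-fold between the replicates, and they summed to 702 and 745 TPM. Ewsr1 was highest, with 126 and 118 TPM. Pcbp2 had 66.5 and 65.8 TPM, and Tardbp had 62.2 and 60.1. Hnrnpa2b1 and Rbm39 thus lay above each of the 21. Their median retained_intron share was 17.6% and 15.1%, and 3 of the 21 led with a transcript not typed protein_coding in both libraries. Rbmx, an hnRNP by function, had 8.5 and 9.5 TPM, and Syncrip, the relative of Hnrnpr, had 19.9 and 31.3.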

How the data were processed

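Ribosome-depleted nucleoplasmic RNA was sequenced from 2 libraries of 1 group. Per the file headers, the deposited tables are on mm10 with GENCODE M21; 1 gene and 1 transcript table per library come from transcriptome alignments (alignment-based) and 1 transcript table from the read files (read-based). Which tools and versions made them, and whether counting used strand, is not given in the sources used. The authors deposited expected counts (estimated counts that divide ambiguous reads and need not be whole), TPM and FPKM, both normalised for effective length, and each transcript's percent of gene TPM, recomputed here from TPM.

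HNRNP and RBM genes were chosen by symbol. The genes and lists were chosen with earlier results of these data known. Named in the text were all HNRNP genes, the 15 highest and 5 lowest RBM genes, genes whose leading transcript was not typed protein_coding or differed between tables, and 7 RBM genes of known role; others are given for completeness. Expected counts were rounded, scaled by TMM (edgeR 4.0.16; DESeq2 1.42.0 as an alternative) and compared as log2 ratios with a prior count of 0.5 and a mean count of at least 100. The ratio step was tested on simulated data. Levels used log2(TPM + 0.1). Counts were whole in both libraries, within 0.005, for 28 of the 52 genes with counts; in the others reads shared with another gene were divided. Exons of another gene with counts overlap 22 of the 55, 16 on the opposite strand, where counts are uncertain. No test between groups was possible. Counting intervals and the 3-count limit leave out other error, since reads are not independent molecules. Some plots omit extreme genes, as their captions state.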

Additional observations from a re-analysis of the deposited data

How the results depend on the processing

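Over 8 results and 54 alternatives, 36 values stayed close to the reported value and 18 moved further. Close means within 1.5 times a reported count, or within the spread of the replicates. For the median count ratio, close means within the margin of a typical single gene's counting interval. No interval of that median itself was computed. A change of sign was not scored as a class of its own. Where the reported value is the mean of both libraries, each single library lies within the spread of the replicates by construction. Leaving out 1 replicate therefore could not move those values. Alternatives that leave out overlapping genes, or keep genes with a retained_intron transcript annotated, were chosen after seeing the data. No paired analysis was possible because the series has 1 group.

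The median level, 3.85 as log2(TPM + 0.1), was 3.27 in the read-based tables, 4.40 by FPKM and 4.36 at a mean count of 10 or more. The ratio of summed TPM, HNRNP over RBM, 1.54 as a mean, was 1.11 in the read-based tables and 1.39 without overlapping genes. The median log2 ratio of counts, -0.02, was -0.27 by TPM. Its sign turned, within the single-gene margin, to 0.01 by read-based counts and 0.04 without overlapping genes. Genes beyond 2-fold, 0 as reported, were 1 (Rbm11, from 1 and 0 counts) with no filter beyond a count above 0, and 2 by TPM. The median share of TPM not in protein_coding, 34.1% as a mean, was 43.6% in the read-based tables, 49.0% at a gene TPM of 10 or more, 21.9% weighted by counts and 48.6% without overlapping genes. The retained_intron share, 20.3%, was 26.3%, 31.8%, 8.76% and 29.8% under the same 4, 18.7% with all genes above 0 and 36.4% with such a transcript annotated. The cause of these shifts was not tested.

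Without replicate 1 or without replicate 2, genes with a TPM of 1 or more numbered 48 to 49, the median level was 3.73 to 3.97, the ratio of summed TPM 1.46 to 1.61, genes led by a transcript not typed protein_coding 13 to 17, and the shares 31.0% to 37.2% and 19.7% to 20.8%. Low alignment-based counts limit Rbm38, Rbm44, Rbm20 and Rbm11, and the leading transcripts of Rbm8a and the short transcripts of Hnrnpr.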
